A study of Mus musculus with 165 samples.

Results

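The step from 72h to 80h of the macrophage time course was examined: 3 libraries of PUER cells 72h after OHT addition in IL3 were compared with 3 libraries taken at 80h, which makes 6 libraries, or 3.64% of those in the series. PUER cells are an established line of myeloid progenitors, given in the labels as bone marrow-derived, that lack the transcription factor PU.1 (Spi1-/-) and carry PU.1 fused to an estrogen receptor domain. The fusion becomes active when 4-hydroxy-tamoxifen (OHT) is added, and all libraries compared here came from cells with this genotype and fusion. Both IL3-OHT groups grew in 5 ng/ml IL3 with 200 nM OHT. The neutrophil arm served for comparison at the same hours (GCSF-OHT, 3 libraries at 72h and 3 at 80h). Its cells had spent 48 h in GCSF before OHT was added and then grew in 10 ng/ml GCSF with 100 nM OHT. Libraries of IL3-OHT 64h and 88h (3 each) bracket the step. Part of the medium was exchanged and fresh OHT given at 40h, 88h and 136h, so that 72h and 80h lie between the same exchanges. All cells of a time point came from a single plate, so plate and time cannot be told apart, and p-values measure the spread between the wells of those plates. The comparison asks which genes moved over these 8 hours of macrophage differentiation.

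Myeloid progenitors divide rapidly, and macrophage differentiation is accompanied by withdrawal from the cell cycle. S phase rests on the loading and firing of the MCM helicase, on DNA polymerases and on nucleotide supply, and its genes are driven by E2F factors. Mitosis rests on kinesins, kinetochore proteins and cyclin B with CDK1, whose promoters often carry a CHR element that is bound by the DREAM and MuvB complexes. Outside the cell cycle, HIF factors raise glycolytic and angiogenic genes when oxygen falls, SREBP2 raises cholesterol synthesis when sterols fall, and the CLOCK and ARNTL pair drives Per and Bhlhe genes through E-boxes.

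The 6 libraries held between 15822933 and 22602018 reads on genes, and 3 reads corresponded to a normalized count of 2.93 to 4.53. Normalized totals ran from 22048044 to 22365494 at 72h and from 23884658 to 24317601 at 80h. The chi-square per gene between replicates, which would be 1 for counting error alone, ran from 3.18 to 9.44. The labelled cells were checked against marker lists. The summed normalized count of 12 monocyte and macrophage markers was 519400 to 531300 at 72h and 515400 to 569200 at 80h, and 0 of the 12 were called. Lyz2, a lysozyme that neutrophils also make, held 92.4% to 92.8% of this sum, and the other 11 markers summed to 38870 to 39970 and then to 38950 to 41150. Neutrophil markers summed to 403500 to 425300 at 72h and to 397700 to 415300 at 80h, with 1 of 11 called (Ly6g). Progenitor markers summed to 7911 to 8341 and then to 7381 to 7501, with 0 of 6 called. Markers of mast cells, basophils and eosinophils, erythroid cells, lymphocytes and dendritic cells each summed to at most 209.3. Epx, an eosinophil peroxidase with means of 1.54 and 5.42, was called higher, and Xcr1, a dendritic cell chemokine receptor with means of 5.43 and 0.40, was called lower, both at counts near or under 3 reads on one side. Within the macrophage list, Csf1r, the receptor for macrophage colony-stimulating factor, lay between 2.40 and 8.54 in the 6 libraries, while Ly6c2, a monocyte surface protein, lay between 18533 and 20444. In bulk RNA, fewer cells of a type and less RNA per cell cannot be told apart.

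Between 72h and 80h in IL3, 813 of 17414 genes tested changed. Of these, 420 rose (2.41% of the genes tested) and 393 fell (2.26%). A gene was called differentially expressed at a Benjamini-Hochberg adjusted p under 0.05 in limma and an absolute log2 fold change over 0.58, on the log2(normalized count + 1) scale. Genes of DNA replication, mitosis, ribosome biogenesis and the mitochondrial genome stood among those that fell, and genes of the hypoxia response, glycolysis, cholesterol synthesis and the circadian clock among those that rose. With the deposited values scaled once more by their upper quartile, limma called 321 genes higher and 527 lower, which moved the share of higher genes from 51.7% to 37.9%. On the first 2 principal components of all libraries outside IL3-OHT 96h and 144h (genes scaled to unit variance), the step covered a distance of 50.3 ± 8.06 (SD over pairs of libraries), the third longest of 25 consecutive steps in IL3. The next, 1h to 2h, covered 48.25, which differed from it by less than that SD, and the step ranked 4 in 4 of the 8 alternatives. The steps on either side, 64h to 72h and 80h to 88h, covered 17.78 and 8.841. From 64h to 72h the change was 3.63 on component 1 and -17.4 on component 2. These were opposite in sign to the -27.3 and 42.3 of the step, so part of its length ran back over that change.

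Of 48 replication genes tested, 20 fell and 0 rose, beside 2.26% of all genes lower, and the median difference of the list was -0.51 on the log2 scale, against 0.00 over all genes tested. All 48 had a negative log2 difference. In 40 the libraries of 80h lay below all 3 of 72h, which held for 16.5% of all genes tested (18.6% lay above). Mcm10, which helps to activate the MCM helicase at origins, stood at 693, 640 and 583 at 72h and at 309, 373 and 369 at 80h. The groups did not overlap, and the log2 fold change was -0.87 ± 0.08 (SE, n = 3 a side; adjusted p = 3.8e-17, limma). Tyms, which makes dTMP, stood at 318, 294 and 282 and then at 141.7, 170.6 and 174.1, also without overlap (log2 fold change -0.88 ± 0.10). Cdc6, a loader of the MCM helicase, went from 617, 510 and 536 to 291, 322 and 299 (log2 fold change -0.86 ± 0.09). Gins1, a subunit of the GINS part of the replicative helicase, went from 195.1, 195.1 and 165.1 to 101.9, 104.2 and 100.9 (-0.85 ± 0.12). Orc1, Chaf1b, Pola1, Mcm5, Pole, Mcm3, Rrm2, Mcm2, Uhrf1, Gins2, Mcm4, Fen1, Rfc4, Rrm1 and Prim1 were among the others that fell. The sliding clamp Pcna stood at 2594, 2656 and 2493 and then at 1832, 1801 and 1712, a log2 difference of -0.53 that lay inside the fold threshold at an adjusted p of 2.3e-14 (limma).

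Among the largest single falls were 2 genes of the same phase of the cycle that were not in the list. Exo1, an exonuclease of mismatch repair and end resection (chr1:175880581-175913489, GRCm38), stood at 288, 291 and 276 at 72h and at 130.7, 135.9 and 132.1 at 80h. Its 3 libraries at 80h lay below all 3 at 72h, with a log2 fold change of -1.09 ± 0.11 (adjusted p = 2.4e-14, limma). Chek1, the checkpoint kinase CHK1, went from 160, 161 and 134 to 53.2, 80.0 and 73.2 (log2 fold change -1.15 ± 0.14). Of the cell cycle regulators, E2f8, a repressor of the E2F family that is itself an E2F target, went from 729, 733 and 615 to 361, 454 and 450 (-0.72 ± 0.08). Rbl1, which encodes the pocket protein p107, went from 724, 667 and 720 to 406, 500 and 475 (-0.62 ± 0.09). The CDK inhibitors Cdkn1a (p21) and Cdkn2b (p15) rose. Cdkn1a stood at 19922, 22626 and 22631 and then at 38220, 30561 and 31213 (0.61 ± 0.07), and Cdkn2b, at low counts, at 22, 18 and 11 and then at 32, 30 and 47 (1.08 ± 0.40). The list of G1 cyclins, CDKs and inhibitors held 2 rising and 2 falling genes of 32 tested (6.25% each), beside 2.41% and 2.26% of all genes. Both inhibitors and Rbl1 lost their call without replicate 1 of 80h, which left 1 call in the list, and 8 were called without replicate 2 of 80h. Both inhibitors and Rbl1 also lost their call after centring by GC content. Cdkn1a further lost it without replicate 1 of 72h and under upper-quartile scaling. Cdkn2b further lost it without replicate 2 or 3 of 72h, without replicate 3 of 80h, with no filter and with only the groups compared.

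Mitotic genes fell as well. Of 54 tested, 13 fell and 0 rose, with a median of -0.49, and 53 of the 54 had a negative log2 difference. Spc25, a subunit of the NDC80 kinetochore complex, stood at 294, 329 and 301 at 72h and at 145.1, 161.5 and 184.9 at 80h (log2 fold change -0.91 ± 0.10, adjusted p = 5.2e-12, limma). Its partner Ndc80 went from 539, 521 and 519 to 305, 343 and 330 (-0.69 ± 0.10). Kif20a, a kinesin of cytokinesis, went from 1388, 1424 and 1337 to 710, 898 and 875 (-0.75 ± 0.07), and the spindle kinesin Kif15 from 325, 333 and 298 to 169.4, 193.2 and 198.1 (-0.77 ± 0.12). For each of these 4 genes the groups did not overlap, as for 52 of the 54 mitosis genes with the lower values at 80h, beside 16.5% of all genes. Cenpe, Cenpf, Kif11, Ccnb1, Prc1, Cdc25c, Kif23, Kif20b and Ect2 were the other 9. Members that were not called included Cdk1, just inside the fold threshold with a log2 difference of -0.577, and the proliferation marker Mki67 with -0.43. The count of calls moved with the settings. It was 8 without replicate 1 of 80h, 23 without replicate 2 of 80h, 24 under upper-quartile scaling and 6 after centring by GC content.

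Promoter sequence is shown for members of the replication and mitosis lists because both groups moved together. The windows are RefSeq sequences of GRCm38.p6, printed as the 250 bases before an annotated start site and searched together with the 50 bases after it. Windows were matched by symbol to 11654 of the 17414 genes, and a gene with several start sites counted as holding a motif if any window did. The E2F motif (TTTGGCGC or TTTCCCGC, either strand) was in the window of 12 of 40 replication genes (30%) and of 3.08% of all genes with a window. Of the 15 called replication genes with a window, 4 held it (26.7%). It was in 6.59% of the windows of genes that fell and 1.55% of those that rose. The CHR element (TTTGAA, either strand) was in 35 of 46 mitosis genes (76.1%), against 15.2% of all genes. Of the 11 called mitosis genes with a window, 9 held it (81.8%). A CCAAT box (CCAAT, either strand) was in 34 of the 46 (73.9%), against 42.8% of all. A match describes letters in a window and does not show that a factor binds there. Below are the replication genes Cdc6 (chr11:98907901-98908150, plus strand) and Pola1, the catalytic subunit of DNA polymerase alpha (chrX:93632156-93632405, minus strand), with the E2F match in capitals, and the mitotic kinesins Kif15 (chr9:122950831-122951080, plus strand) and Kif11 (chr19:37376132-37376381, plus strand), with the CHR match in capitals. They are the genes with the largest falls among those with a match before the start site.
Cdc6: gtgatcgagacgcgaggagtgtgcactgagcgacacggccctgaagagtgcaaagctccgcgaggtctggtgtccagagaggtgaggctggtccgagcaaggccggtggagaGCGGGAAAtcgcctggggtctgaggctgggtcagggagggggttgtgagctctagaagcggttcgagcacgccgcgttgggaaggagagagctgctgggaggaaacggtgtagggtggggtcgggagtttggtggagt
Pola1: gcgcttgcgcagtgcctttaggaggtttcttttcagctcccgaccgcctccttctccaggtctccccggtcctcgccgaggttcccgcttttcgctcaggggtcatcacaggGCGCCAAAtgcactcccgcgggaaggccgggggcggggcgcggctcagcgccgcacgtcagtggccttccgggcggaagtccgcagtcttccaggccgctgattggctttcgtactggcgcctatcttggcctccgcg
Kif15: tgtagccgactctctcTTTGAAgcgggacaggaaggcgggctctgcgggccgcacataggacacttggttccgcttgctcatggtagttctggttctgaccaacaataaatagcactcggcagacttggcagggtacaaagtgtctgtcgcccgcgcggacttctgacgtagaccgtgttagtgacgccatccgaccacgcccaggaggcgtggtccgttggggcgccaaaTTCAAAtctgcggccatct
Kif11: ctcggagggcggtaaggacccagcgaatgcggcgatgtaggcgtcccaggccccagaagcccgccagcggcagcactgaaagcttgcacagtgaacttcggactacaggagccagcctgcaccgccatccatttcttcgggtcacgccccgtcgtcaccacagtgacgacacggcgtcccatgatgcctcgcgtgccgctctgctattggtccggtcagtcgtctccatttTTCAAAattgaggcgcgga

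Ribosome biogenesis formed a further group of falling genes. Of 49 tested, 14 fell and 0 rose, with a median log2 difference of -0.37. Nop58 and Nop56, core proteins of box C/D snoRNPs, stood at 1530, 1508 and 1454 and at 2731, 2484 and 2447 at 72h. At 80h they stood at 750, 894 and 820 and at 1306, 1538 and 1528. The log2 fold changes were -0.87 ± 0.08 and -0.81 ± 0.07. Dkc1, the pseudouridine synthase of box H/ACA snoRNPs, went from 1157, 1187 and 1084 to 569, 685 and 660 (-0.84 ± 0.09), and the nucleolar chaperone Nolc1 from 2518, 2283 and 2183 to 1221, 1431 and 1335 (-0.81 ± 0.07). Without replicate 1 of 80h the list held 9 calls. Cytosolic ribosomal protein genes did not share this, with 0 of 81 called in either direction and a median of 0.05. For MYC itself the log2 difference was -0.10 in a list of IL3 and STAT5 targets, while its antagonists Mxd1 (0.63 ± 0.09) and Mnt (0.61 ± 0.09) rose. Mxd1 stood at 1180, 1352 and 1498 and then at 2270, 1900 and 2075. They were the 2 called genes of 15 in the list of MYC partners, whose median was 0.01, with 8 differences above 0 and 7 below it. Both calls were lost without replicate 1 of 72h and without replicate 1 of 80h, and that of Mnt also without replicate 2 of 72h, under upper-quartile scaling and after centring by GC content.

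Of 13 genes of the mitochondrial genome tested, 5 fell and 0 rose, and the median was -0.50. mt-Cytb, a subunit of respiratory complex III, stood at 22211, 20007 and 18533 and then at 10047, 14225 and 12451 (log2 fold change -0.74 ± 0.11). mt-Nd3 of complex I went from 1757, 1440 and 1201 to 617, 848 and 842 (-0.93 ± 0.18). mt-Nd1, mt-Nd2 and mt-Nd4 were the other 3. The share of all normalized counts on mitochondrial genes was 1.21% to 1.26% at 72h and 0.846% to 1.03% at 80h, without overlap. Of 55 nuclear genes of oxidative phosphorylation, 0 were called and the median was -0.05. Mitochondrial transcripts have a low GC content (median 37.1%), and the list held 2 calls after centring by GC content and 2 without replicate 1 of 80h.

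Mat2a, which makes S-adenosylmethionine, was the most abundant of the 12 largest falls. It stood at 2239, 2155 and 1956 at 72h and at 921, 1082 and 1180 at 80h, so the groups did not overlap (log2 fold change -1.0003 ± 0.08, adjusted p = 1.2e-19, limma). Alg8, a glucosyltransferase of N-glycan assembly, went from 166, 151 and 140 to 78, 63 and 91 (-0.98 ± 0.13). Mns1, Adam1a, Cyb5rl, Aoc3, Klhl23, Platr25 and Lipn completed the set, with 72h means of at most 220.69. The first by size, Commd1b, rests on 1 library of 72h (12, 29 and 146, then 10, 0 and 5), lost its call without that library, and is by its name a copy of Commd1, so its counts are uncertain. Of the myeloid surface genes, Clec5a, an activating receptor paired with DAP12, fell from 8811, 8623 and 8098 to 4526, 5387 and 5266 (-0.75 ± 0.07). Tfrc, the transferrin receptor, fell from 7168, 7518 and 7274 to 4470, 4852 and 4774 (-0.64 ± 0.09), a call that was lost after centring by GC content. Tlr7, an endosomal sensor of RNA, fell from 263, 252 and 262 to 149.5, 158.5 and 154.9 (-0.75 ± 0.10), and the interferon-induced Ifit2 from 610, 626 and 554 to 285, 451 and 351 (-0.74 ± 0.10). Of 31 Fc and paired receptor genes 1 fell (3.23%), and of 21 genes of Toll-like receptors and adaptors 2 fell (9.52%). Both had 0 rises, and 2.26% of all genes fell. Among 44 interferon-stimulated genes 3 fell, 1 rose and the median was -0.28, and 2 to 8 were called with single libraries left out.

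**Figure D1:**
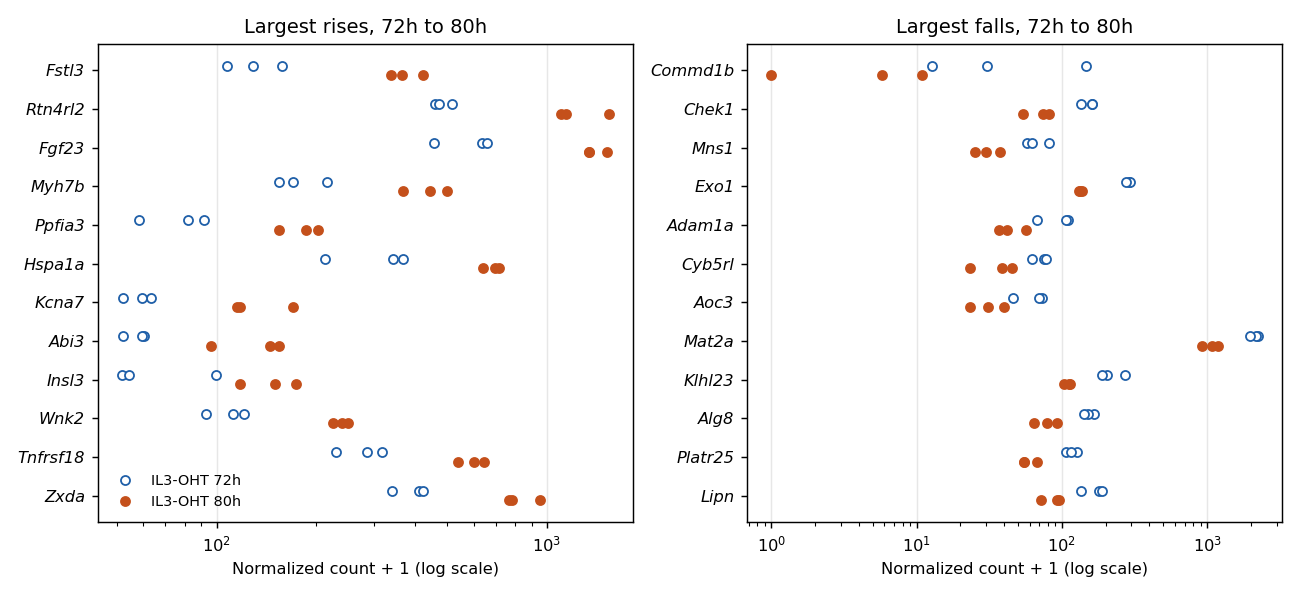
Normalized count + 1 (log axis) in each library of IL3-OHT 72h (open circles) and 80h (filled circles) for the 12 largest rises (left) and 12 largest falls (right) among called genes without overlap and with a mean of at least 50 on the higher side. The rises run from 2.14-fold to 2.87-fold, and the wide spread of Commd1b at 72h comes from 1 library of 146.

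The first of the 12 largest rises by fold was Fstl3, a secreted antagonist of activin (chr10:79777272-79782630, GRCm38). It stood at 106.3, 128.1 and 157.1 at 72h and at 422, 364 and 336 at 80h. The groups did not overlap, with a log2 fold change of 1.52 ± 0.21 (adjusted p = 3.3e-09, limma). Rtn4rl2, a Nogo receptor homolog, went from 458, 470 and 515 to 1538, 1144 and 1100 (1.37 ± 0.19). At 64h Rtn4rl2 stood at 823, 854 and 700 and at 88h at 857, 705 and 733, so the groups around the step overlapped. Tnfrsf18, which encodes the co-stimulatory receptor GITR, went from 228, 284 and 316 to 643, 599 and 537 (1.11 ± 0.20). Fgf23, a phosphate-regulating hormone, went from 455, 637 and 659 to 1516, 1340 and 1338 (1.28 ± 0.45). Its call was lost without replicate 1 of either time. Myh7b, Ppfia3, Kcna7, Abi3, Insl3, Wnk2 and Zxda were further members of the 12 largest rises, of which Zxda is annotated as a pseudogene. The call of Insl3 was lost in 4 of the 6 fits without 1 library, with a pseudocount of 0.5, with no filter, with only the groups compared and after centring by GC content. That of Wnk2 was lost without replicate 1 of 72h and after centring by GC content. Hspa1a, the inducible chaperone HSP70, went from 364.8, 212.2 and 342.1 to 713, 696 and 640 (1.19 ± 0.22), and its near-identical copy Hspa1b from 865, 600 and 761 to 1411, 1481 and 1284 (0.92 ± 0.15). Reads of these copies may be split between them. They were the 2 called genes of 22 in the heat shock list, whose median was -0.04.

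The hypoxia response held 7 rising genes of 22 tested and 0 falling ones, beside 2.41% of all genes higher, and its median was 0.45. Vegfa, the angiogenic growth factor, stood at 17722, 20909 and 23271 at 72h and at 39879, 32291 and 33956 at 80h, without overlap (log2 fold change 0.78 ± 0.13, adjusted p = 7.6e-07, limma). P4ha2, a collagen prolyl hydroxylase, went from 1694, 2036 and 2046 to 3571, 3117 and 3346 (0.80 ± 0.17). Egln1, the oxygen sensor PHD2 that marks HIF for degradation, went from 9777, 10768 and 11732 to 20142, 17048 and 15958 (0.72). Ndrg1, Ero1l, Ddit4 and P4ha1 were the other 4, of which Ddit4 lost its call after centring by GC content and without replicate 1 of either time. The glucose transporter Slc2a1 rose from 14741, 17037 and 18517 to 30123, 26641 and 27370 (0.75 ± 0.16), and Gpi1, the second enzyme of glycolysis, from 115550, 120730 and 128110 to 203370, 196930 and 195020 (0.71 ± 0.08). With Pfkm, they were the 3 rising genes of 22 in the glycolysis list, whose median was 0.35. The list held 5 calls without replicate 3 of 72h, and Pfkm lost its call after centring by GC content. Gapdh lay inside the fold threshold, with 200960, 209630 and 214550 and then 321800, 296110 and 291620 (0.54). Nos2, the inducible nitric oxide synthase, rose from 1035, 1410 and 1467 to 2673, 2578 and 2695 (1.04 ± 0.24).

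Cholesterol synthesis showed 7 rising genes of 29 and 0 falling ones (median 0.34). Srebf2, which encodes SREBP2 itself, stood at 8117, 7246 and 7890 and then at 14118, 13001 and 12195 (log2 fold change 0.76 ± 0.08, adjusted p = 3.7e-14, limma). Sqle, the squalene epoxidase, went from 3903, 3798 and 4263 to 6576, 6412 and 6128 (0.68 ± 0.07), and Lss, the lanosterol synthase, from 1083, 924 and 993 to 1695, 1676 and 1508 (0.70 ± 0.09). Lpin1, Mvd and Insig1 were among the others. Fatty acid synthesis genes under SREBP1 held 0 calls of 26.

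The circadian clock list held 4 rising genes and 1 falling gene of 21. Per1, a repressor of the clock, stood at 764, 889 and 936 and then at 1847, 1599 and 1633 (0.97 ± 0.16, adjusted p = 9.2e-07, limma). Bhlhe41, a repressor that competes for E-boxes, went from 6791, 7856 and 9099 to 17737, 13818 and 13789 (0.93 ± 0.13). Ciart went from 168.8, 187.8 and 221 to 300, 320 and 339 (0.74 ± 0.16), and Dbp had a log2 fold change of 0.61. Arntl, the activator of the loop, fell from 84, 71 and 61 to 31, 53 and 52 (-0.69 ± 0.19), a call that was lost without replicate 1 of either time. The list held 9 calls without replicate 3 of 72h and 3 without replicate 1 of 80h. The E-box CACGTG, which reads alike on both strands, was in the windows of 5 of 17 clock genes (29.4%) and of 10.9% of all genes. The hypoxia element TACGTGC (either strand) was in 5 of 17 hypoxia genes (29.4%) and in 1.14% of all. The hypoxia element shares ACGTG with the E-box but does not contain it. The 2 rising genes of each list with the largest fold and a match before the start site are shown, with the match in capitals, to let the element be seen in its context. Per1 (chr11:69098699-69098948, plus strand) and Bhlhe41 (chr6:145865421-145865670, minus strand) hold the E-box, and P4ha2 (chr11:54100674-54100923, plus strand) and Egln1 (chr8:124949255-124949504, minus strand) the hypoxia element.
Per1: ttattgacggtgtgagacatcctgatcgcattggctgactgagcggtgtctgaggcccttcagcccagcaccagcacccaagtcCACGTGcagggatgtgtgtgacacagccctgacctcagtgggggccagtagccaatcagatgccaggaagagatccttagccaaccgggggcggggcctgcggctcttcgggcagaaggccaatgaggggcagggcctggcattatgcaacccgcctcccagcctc
Bhlhe41: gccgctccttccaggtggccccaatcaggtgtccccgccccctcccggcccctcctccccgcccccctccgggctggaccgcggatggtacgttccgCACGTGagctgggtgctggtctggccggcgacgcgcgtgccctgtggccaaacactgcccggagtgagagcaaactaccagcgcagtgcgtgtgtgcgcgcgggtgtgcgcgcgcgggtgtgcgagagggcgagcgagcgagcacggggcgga
P4ha2: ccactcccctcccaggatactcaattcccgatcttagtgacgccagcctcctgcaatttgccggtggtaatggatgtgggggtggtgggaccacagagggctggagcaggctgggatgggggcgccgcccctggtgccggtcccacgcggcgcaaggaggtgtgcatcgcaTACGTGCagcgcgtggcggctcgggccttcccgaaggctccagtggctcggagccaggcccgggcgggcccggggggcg
Egln1: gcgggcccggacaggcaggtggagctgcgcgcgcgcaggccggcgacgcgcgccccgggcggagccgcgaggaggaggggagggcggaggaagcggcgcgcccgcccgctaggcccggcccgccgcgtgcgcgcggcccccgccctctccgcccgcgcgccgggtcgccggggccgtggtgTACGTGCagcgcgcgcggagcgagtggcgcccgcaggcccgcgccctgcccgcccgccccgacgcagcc

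Stress and survival genes changed singly. Gdf15, a secreted stress cytokine and ATF4 target, rose from 764, 780 and 857 to 1951, 1390 and 1425 (0.97 ± 0.14, adjusted p = 1e-08, limma). Sesn2 and Ddit4, inhibitors of mTORC1 signalling, rose with it in the ATF4 list. This list held 4 rising genes (10.0%) and 1 falling gene (2.5%) of 40, beside 2.41% and 2.26% of all genes. Sesn2 went from 4128, 4507 and 4900 to 7925, 6992 and 7044 (0.70 ± 0.11). Bbc3, which encodes the pro-apoptotic BH3 protein PUMA, rose from 1060, 1010 and 1192 to 2742, 2009 and 1838 (1.00 ± 0.15) and was the 1 call among 16 genes of the BCL2 family. The IL3 and STAT5 list held 2 rising genes of 23, Bcl6 and Socs1. With single libraries left out, the ATF4 list held 2 to 7 calls and the STAT5 list 1 to 5, and upper-quartile scaling left 0 in the latter. After centring by GC content the ATF4 list held 2 calls, and those of Sesn2 and Ddit4 were lost. Ddit4 also lost its call without replicate 1 of either time and with only the groups compared.

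Lineage genes were called in small numbers, to be read beside 2.41% of all genes higher and 2.26% lower. Of 24 monocyte and macrophage genes tested, 0 were called, with log2 differences from -0.71 to 0.87 and a median of -0.10. Of 14 progenitor genes, 0 were called, and Kit stood at 1414, 1585 and 1668 and then at 1535, 1541 and 1581. Of 23 neutrophil granule genes 1 was called (4.35%), Ly6g, at counts of 10 to 34. Among 31 lineage transcription factors, Cebpb, Nab2 and Klf2 rose (9.68%) and Egr2 fell (3.23%). After centring by GC content this list held 1 rising and 2 falling genes. Cebpb, a driver of macrophage and granulocyte genes, stood at 9292, 8238 and 9365 and then at 17367, 13042 and 12691 (0.67 ± 0.15). Its call was lost without replicate 1 of 80h and after centring by GC content. Klf2 lost its call in 3 of the 6 fits without 1 library, under upper-quartile scaling and after centring by GC content, and Egr2 in 5 of the 6. The list held 1 call without replicate 1 of 80h and 2 without replicate 2 of 72h. Spi1, read here in cells that carry it as the fusion, stood at 7418, 6927 and 6551 and then at 5983, 6068 and 6202, a log2 difference of -0.19 ± 0.05 (adjusted p = 0.00088, limma) and inside the fold threshold.

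The comparison of 88h with 64h, on either side, shares no library with the step. Its interval also holds 64h to 72h and 80h to 88h, so agreement cannot place a change between 72h and 80h. Both comparisons took their spread from the same fit. Between 64h and 88h in IL3, 587 genes were called, with 0.884% of those tested higher and 2.49% lower. Of the 420 genes that rose from 72h to 80h, 42 (10.0%) were also called higher at 88h than at 64h, and 322 (76.7%) had the same sign, beside 62.7% of all genes with a positive difference across the step, with a median log2 difference of 0.25 beside 0.80 across the step. Of the 393 that fell, 109 (27.7%) were also called lower, and 335 (85.2%) had the same sign, beside 66.1% of all genes with a negative difference, with a median of -0.48 beside -0.84. The 42 and 109 genes were 27.3% and 25.2% of those called higher and lower between 64h and 88h. With the mean of 56h and 64h against the mean of 88h and 104h, 235 of the 813 were called in the same direction. Of these groups, 104h came after the exchange of medium and fresh OHT at 88h.

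Replication and mitosis genes were lower across this wider interval too. The medians between 64h and 88h were -0.46 with 11 falling genes of 48, and -0.51 with 14 of 54. Mcm10 stood at 550, 538 and 581 at 64h and at 311, 298 and 360 at 88h (log2 fold change -0.79, called), and Kif20a at 1178, 1178 and 1474 and then at 771, 732 and 844 (-0.70, called). Exo1 stood at 211.7, 182.5 and 253.8 and then at 89.8, 108.1 and 135.9 (-0.96, called). Ribosome biogenesis had a median of -0.29 with 3 falling genes of 49. Of the rising groups, hypoxia had a median of 0.23 with 2 rising genes of 22, and cholesterol synthesis 0.12 with 1 of 29. Seen from 72h, which both differences share, the hypoxia list lay 0.28 higher at 64h and 0.45 higher at 80h, and the cholesterol list 0.40 and 0.34 higher. Sqle, for example, stood at 5399, 5580 and 5015 at 64h, above its 3 values at 72h and below those at 80h. Vegfa at 64h (27781, 26531 and 24338) and Nos2 at 64h (2230, 2108 and 2068) also lay between their values of 72h and 80h. Among the largest rises, Fstl3, Rtn4rl2, Fgf23, Myh7b and Ppfia3 at 64h lay between their values of 72h and 80h too. All libraries of 88h lay above those of 64h for Fstl3, Fgf23, Myh7b and Ppfia3, but not for Rtn4rl2. For all these genes 72h thus held the lowest of the 3 sets of values. For the mitotic list the median difference of 64h from 72h was -0.03.

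**Figure D2:**
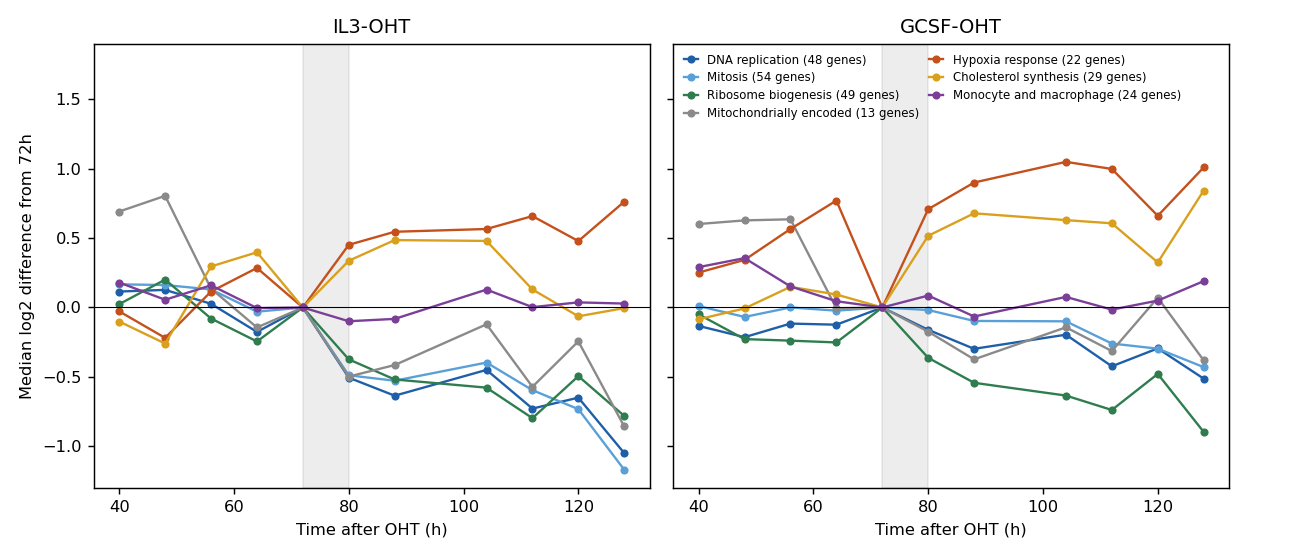
Median log2 difference from 72h of the members of 7 gene lists between 40h and 128h after OHT, in IL3-OHT (left) and GCSF-OHT (right), with the interval from 72h to 80h shaded. All values are set to 0 at 72h, so every point shares those libraries. In IL3 the replication and mitosis lists stay near 0 up to 72h and lie near -0.5 from 80h, while the hypoxia and cholesterol lists dip at 72h in both conditions.

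**Figure D3:**
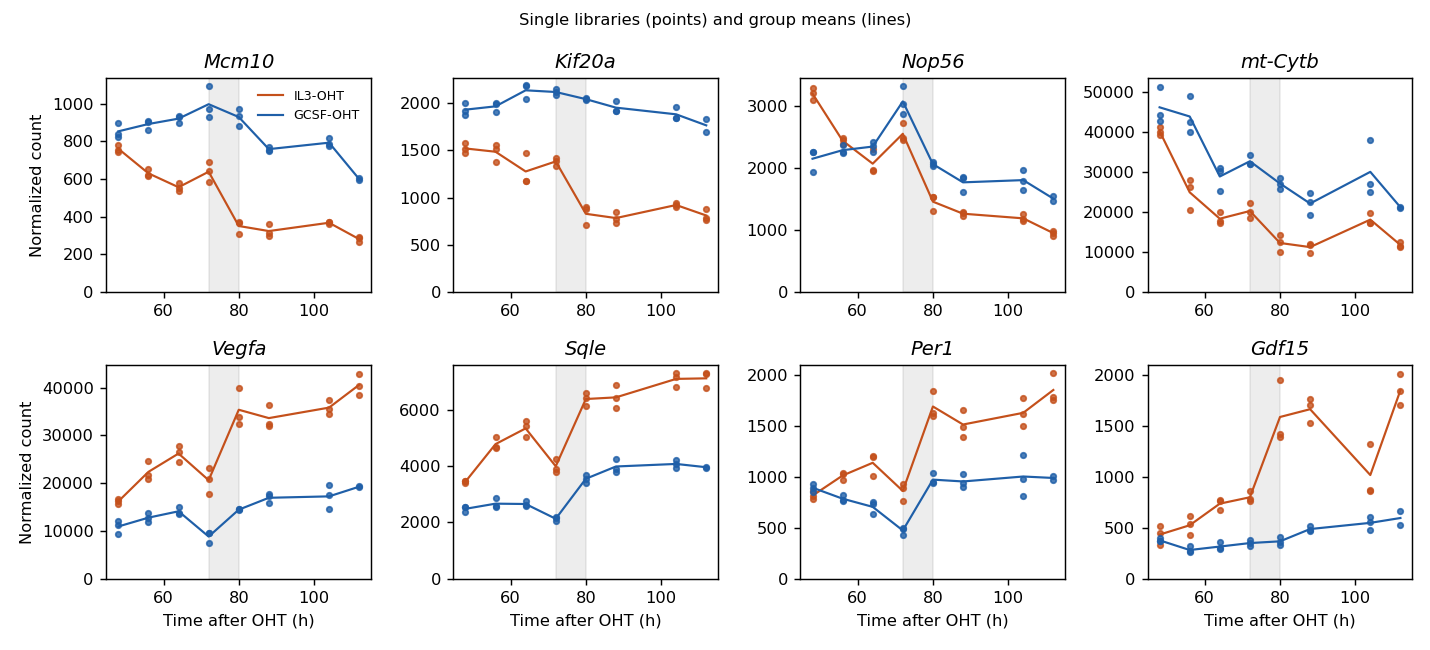
Normalized counts (linear axis) of 8 genes between 48h and 112h after OHT in IL3-OHT (orange) and GCSF-OHT (blue), with single libraries as points, group means as lines and the step shaded. Mcm10, Kif20a and Nop56 fall across the step in IL3, Vegfa, Sqle and Per1 rise from a low point at 72h in both conditions, and Gdf15 rises in IL3, where its interaction with condition was called.

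The same 8 hours were then examined in GCSF. There, 283 genes were called, with 1.22% of those tested higher at 80h and 0.408% lower. Of the 420 genes that rose in IL3, 95 (22.6%) also rose in GCSF, and of the 393 that fell, 10 (2.54%) also fell, or 44.8% and 14.1% of the genes called higher and lower in GCSF. The hypoxia list held 15 rising genes of 22 in GCSF (median 0.71), the cholesterol list 9 of 29 (median 0.52) and the clock list 6 rising and 1 falling of 21. Per1 in GCSF went from 503, 491 and 430 to 937, 950 and 1036 (log2 fold change 1.04, called), and Vegfa from 9485, 9608 and 7428 to 14328, 14565 and 14504 (0.72, called). Ribosome biogenesis held 6 falling genes of 49 in GCSF (median -0.36), among them Dkc1 with a log2 fold change of -0.67. Replication and mitosis held 0 calls each, with medians of -0.16 and -0.02.

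The difference between the conditions was tested as an interaction, IL3 step minus GCSF step. It called 44 genes higher (0.253%) and 74 lower (0.425%). The mitosis list held 9 of the lower genes and the replication list 2, Mcm10 and Tyms. Mcm10 stood at 971, 928 and 1093 in GCSF at 72h and at 884, 970 and 935 at 80h, overlapping groups with a log2 difference of -0.10, so its interaction was -0.77 (adjusted p = 2.9e-07, limma). Kif20a stood at 2150, 2088 and 2121 and then at 2048, 2051 and 2032 in GCSF, with an interaction of -0.69 (adjusted p = 1.7e-07, limma). For Spc25 it was -0.91 and for Ndc80 -0.72. Gdf15 stood at 319, 349 and 384 and then at 331, 415 and 358 in GCSF, with an interaction of 0.91 (adjusted p = 0.002, limma). For Fstl3 it was 1.01 (adjusted p = 0.035, limma). In the ribosome biogenesis and cholesterol lists 0 genes were called in the interaction by limma, and in the hypoxia list 1 was (Ak4, which was named after its value was seen). Such counts do not show that these lists moved alike.

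**Figure D4:**
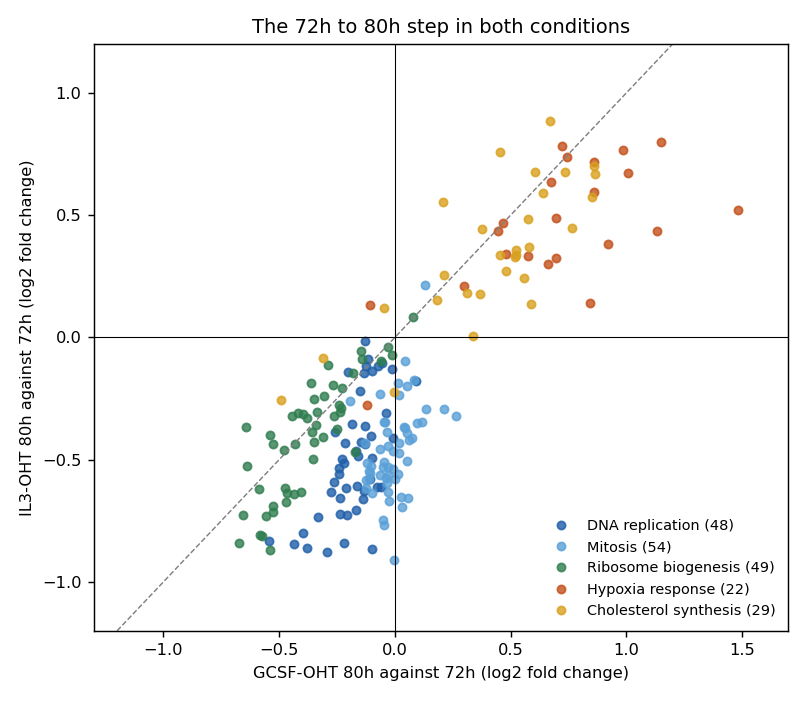
Log2 fold change of 80h against 72h in IL3-OHT (vertical axis) and GCSF-OHT (horizontal axis) for the genes of 5 lists, 1 point a gene, with the dashed line marking equal change. Mitosis genes lie near 0 in GCSF and below 0 in IL3, and ribosome biogenesis, hypoxia and cholesterol genes lie on the same side of 0 in both for most members.

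GC content moved with the step, and its part in the results was not tested beyond the centring given here. The transcripts of the 420 genes that rose had a median GC content of 55.7% (405 with a value), those of the 393 that fell 47.3% (382 with a value), and all genes tested 50.7%. Over 9808 genes with a mean count of at least 100, the median log2 difference of the step was -0.135 in the lowest decile of GC content and 0.232 in the highest. From 80h to 88h it was 0.16 and -0.191, so the tilt was of the opposite sign, and between 64h and 88h the ends differed by 0.0125. A tilt of the same sign as in the step was not particular to it. In GCSF from 72h to 80h the values were -0.0555 and 0.0862. In IL3 they were -0.17 and 0.155 from 48h to 56h, after 0.0961 and -0.0983 from 40h to 48h. Against the mean of the 12 libraries of 64h to 88h, the highest decile exceeded the lowest by 0.388, 0.253 and 0.165 in the 3 libraries of 80h and by -0.00717, -0.142 and -0.116 in those of 72h, without overlap. The largest value belonged to replicate 1 of 80h, without which the step held 586 calls. When every gene was centred on genes of like GC content, an alternative chosen after the data were seen, 642 genes were called, 286 higher and 356 lower, 540 of them shared with the 813. The replication list then held 17 falling genes, ribosome biogenesis 10, mitosis 6, hypoxia 6 rising, cholesterol synthesis 7 rising and glycolysis 2 rising. The medians of the replication, mitosis, ribosome biogenesis, hypoxia and cholesterol lists were -0.49, -0.43, -0.42, 0.43 and 0.37 after centring. Pseudogenes made up 16.9% of the genes that rose, 10.4% of those that fell and 13.2% of all tested. Among the genes that rose 307 had a mean of at least 50, and among those that fell 233.

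**Figure D5:**
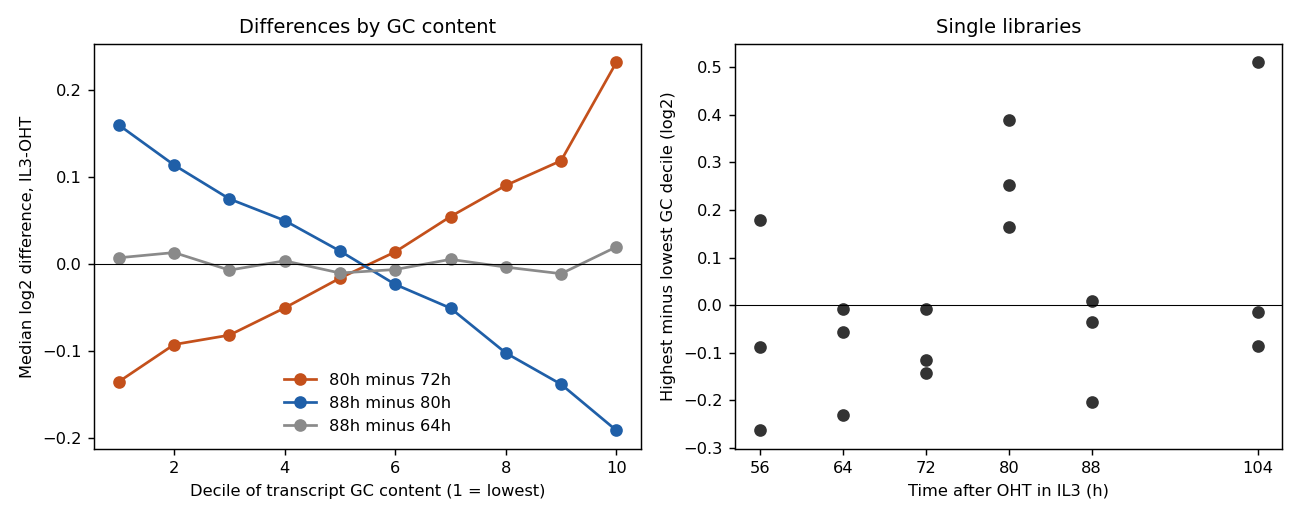
Left, median log2 difference in IL3-OHT for genes in deciles of transcript GC content, for the step (orange), 80h to 88h (blue) and 64h to 88h (grey). Right, the highest minus the lowest decile in each library of 6 time points (log2, against the mean of the 12 libraries of 64h to 88h). The 3 libraries of 80h are all above 0 and those of 72h all below it.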

How the data were processed

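The authors quantified transcripts with Salmon (selective alignment, GRCm38) and normalized by DESeq2's median of ratios. Versions and the step from transcripts to genes are not given in the sources used here. The table they deposited holds this normalized signal (normalized counts) for 36255 genes in 165 libraries. In each library 100.0% of the values were whole multiples of what 1 read is worth, so reads were recovered. Libraries were grouped by their labels, and IL3-OHT 96h and 144h (6 libraries), excluded in the study, took no part. Genes reaching 5 normalized counts in any library (17414) were tested in R 4.3.3 with limma 3.58.1 on log2(normalized count + 1), with 1 mean per group over 159 libraries, a mean-variance trend and Benjamini-Hochberg adjustment. Calls needed an adjusted p under 0.05 together with a log2 fold change beyond 0.58 in size. The script was tested on simulated data for this comparison over 17414 genes. All genes changed by -1.5, 0.8 and 1.5 on the log2 scale and 92% of those changed by -0.8 were recovered (50 each). Of the unchanged genes, 16 were called. The changed genes all had a mean of at least 50, every gene had the same dispersion, and no plate or GC effect was simulated. The recovery therefore does not cover low genes or such effects. ERCC scaling was not used, since the table has 0 ERCC entries.

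The members and the 45 gene lists were chosen with earlier results of these data known, so no list is independent support. Of the lists, 44 had a member tested (1181 genes, 27 symbols matched by older names), and 117 members were called. Named genes were the 12 largest rises and falls without overlap, with a mean of at least 50 on the higher side and no gene model or pseudogene name, up to 4 called members of each list, and Spi1. Other members are named where a list's calls or values just inside a threshold are spelled out, after their values were seen. GC content came from GENCODE transcripts matched by symbol (16920 of 17414 genes). Motifs were searched in RefSeq promoter windows of GRCm38.p6, without chromosome 18. Alternatives were pseudocounts of 0.5 and 5, no filter, a mean of at least 10 (12298 genes), upper-quartile scaling, only the groups compared, a replicate block, each library left out, edgeR 4.0.16 (quasi-likelihood, TMM) and DESeq2 1.42.0 (Wald) on recovered reads and, chosen after the data were seen, centring in 20 bins of GC content. Depth ran from 15822933 to 22602018 reads in the 6 libraries, and the floor of 3 reads covers counting error only.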

Additional observations from a re-analysis of the deposited data

Results flagged for a closer look

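The step from 72h to 80h differed between IL3 and GCSF for 44 genes higher and 74 lower by limma's interaction test. The named genes among them were lower in the IL3 step for Exo1 (interaction -0.80 on the log2 scale), Adam1a (-1.17), Klhl23 (-0.89), Ifit2 (-0.69), Tlr7 (-0.58), Clec5a (-0.58), Tyms (-0.59), Mcm10 (-0.77), Spc25 (-0.91), Kif15 (-0.72), Kif20a (-0.69), Ndc80 (-0.72) and E2f8 (-0.59). They were higher in the IL3 step for Fstl3 (1.01) and Gdf15 (0.91). In GCSF, where OHT was added at 100 nM rather than 200 nM and cells had been pre-treated with GCSF, none of the 15 genes was called between 72h and 80h by limma.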

How the results depend on the processing

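The step held 813 calls and, over the alternatives other than the block, 586 to 915: 796 and 802 with pseudocounts of 0.5 and 5, 915 with no filter, 656 with a mean of at least 10, 586 with only the groups compared, 848 with upper-quartile scaling, 705 by edgeR, 707 by DESeq2 and 642 after centring by GC content. With each library left out the counts were 586 to 891 for the step, 462 to 606 for 88h against 64h, up to 299 for the GCSF step, 23 to 54 higher and 41 to 112 lower for the interaction (23 and 46 without IL3-OHT 80h replicate 1, 26 and 41 without GCSF-OHT 72h replicate 2, 53 and 112 without IL3-OHT 80h replicate 2) and 86 or more for list members. Of the step's genes, 151 were called in the same direction between 64h and 88h, at least 112 with single libraries left out and 235 with the mean of 56h and 64h against that of 88h and 104h. Upper-quartile scaling, which moved the median of all genes by -0.0374, called 34 genes higher and 98 lower in the interaction (25.8% higher, 37.3% as reported) and 36 list members higher and 98 lower (26.9% against 40.2%). The displacement on the principal components stayed between 46.68 and 53.6, with rank 3 or 4.

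Replicate numbers did not pair the samples: same-numbered libraries of 72h and 80h deviated from their group means with correlations of -0.0356, -0.156 and 0.164. With the replicate number as a block, 0 genes were called by limma in the step, in 88h against 64h and in the GCSF step, and so 0 list members and 0 genes shared with the neighbours, while 36 were called in the interaction (11 higher, 25 lower). Unadjusted p-values under 0.05 numbered 5008, 4725 and 3773 in the first 3 comparisons. Each block fit used only the groups compared. Among 98 named genes no fold change reversed in any alternative. In all of them other than the block, 56 kept their status, counting Spi1, which was not called in any. The block took 97 calls. Centring by GC content took 24 calls among the 96 named genes with a GC value, again counting Spi1. Fitting only the groups compared took 20, and leaving out 1 library 6 to 22 (22 without replicate 1 of 72h, 21 without replicate 1 of 80h).

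Depth limits the low genes: 64 of the genes that rose and 98 of those that fell had a mean under 10 on the higher side, near the floor of 2.93 to 4.53.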

Other observations

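Other groups, assembled after the values were seen and so given as counts with no test, moved within the same step. Of 26 genes of one-carbon, nucleotide and polyamine metabolism, 7 fell and 0 rose (Mat2a, Dctd, Ppat, Shmt1, Gart, Atic and Mthfd1), with a median of -0.31 in IL3 and of -0.32 in GCSF, where 3 fell and 1 rose. Of 23 Fanconi and recombination genes, 9 fell and 0 rose (among them Gen1, Fancb, Parpbp, Fanci, Rad54l, Rad54b, Rad51ap1 and Polq), with a median of -0.52. Between 64h and 88h 11 of the 23 fell, and in GCSF 0 were called by limma, with a median of -0.10. The 21 genes with Cenp symbols, which encode centromere proteins, held 6 falls and 0 rises. The 81 mitochondrial ribosomal protein genes held 0 calls by limma, with a median of -0.10.

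Among 9 chromatin regulators picked by hand (the class IIa deacetylases Hdac4, Hdac5, Hdac7 and Hdac9 and the demethylases Kdm4a, Kdm4b, Kdm4c, Kdm6a and Kdm6b), Hdac7, Hdac5, Kdm4b and Kdm6b rose and 0 fell. The median was 0.308 in IL3 and 0.172 in GCSF, where Hdac7, Kdm4b and Kdm6b rose and 0 fell. Between 64h and 88h in IL3, 0 of the 9 were called by limma, with a median of 0.165. Transcripts of the 4 that rose had GC contents of 56.6% to 60.1%. The median was 54.1% for the 9 and 50.7% for all genes tested. Of 360 genes with Zfp symbols, 13 fell and 3 rose, beside 2.26% and 2.41% of all genes, and their median GC content was 45.9%. Of 18 semaphorin genes 3 rose (Sema4g, Sema6c and Sema6b), with a median GC content of 56.1%.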
